A study of Mus musculus with 18 samples.

Results

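The response of IRF5 knockout (IRF5 KO) macrophages to 2 h of lipopolysaccharide (LPS) was described from 6 of the 18 RNA-seq libraries of the series. Members were chosen by their labels: the 3 IRF5 KO libraries labelled DMSO and 2 h of LPS were compared with the 3 IRF5 KO libraries labelled 0 h. All cells were bone marrow-derived macrophages (BMDMs), grown from mouse bone marrow for 8 days with GM-CSF. The stimulated cells received the DMSO vehicle for 1 h and then LPS at 100 ng/ml for 2 h. The sample labels name DMSO for the 0 h libraries as well, whereas the column names of the deposited table call them untreated, so their vehicle is not known. The other 12 libraries, also in groups of 3, were unstimulated wild type (WT) cells, WT cells with DMSO and LPS, and both genotypes with 3.5 µM defactinib, an inhibitor of the kinases PYK2 and FAK, for 1 h before LPS. The IRF5 KO is described by the study as an IRF5-/- mouse. The methods name male C57BL/6J mice aged 8 to 11 weeks, without saying which cultures came from them. The study describes its cell culture replicates in general as biological, but neither the labels nor the methods say whether the 3 libraries of a group here came from separate mice, so p-values measure only the spread between these libraries, which may be technical.

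LPS, a component of the outer membrane of Gram-negative bacteria, is sensed by TLR4 with its co-receptor CD14. The adaptor MyD88 carries the signal to NF-κB, MAP kinases and IRF5, and the adaptor TRIF carries it to IRF3, which drives interferon beta and, through it, the interferon-stimulated genes. IRF5 is a transcription factor of myeloid cells known for driving inflammatory cytokines such as IL-12 and IL-23, and the libraries ask which LPS responses occur in macrophages without it.

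The 3 stimulated IRF5 KO libraries did not behave as a uniform group, and this comes before any result. Replicates 1 and 2 differed from the mean of the unstimulated IRF5 KO libraries by more than 2-fold at 4537 and 4558 of 15663 tested genes, and replicate 3 at 1202. Against the mean of the IRF5 KO libraries with defactinib and LPS the same counts were 1007 and 1066 for replicates 1 and 2 and 3943 for replicate 3. Per gene, the chi-square statistic between libraries (1 is the value that counting noise alone gives) was 2.33 for the pair of replicates 1 and 2. It was 441 for replicates 1 and 3, and 426 for replicates 2 and 3. The other pairs of replicates in the series lay between 3.82 and 183. Replicates 1 and 2, the closest pair of the series, differed by more than counting noise, which does not show whether they are separate samples. They were kept as separate libraries, as labelled. Reads over ribosomal RNA-overlapping genes made up 4.87%, 4.90% and 0.590% of the counts in stimulated replicates 1, 2 and 3, and 0.266% to 0.348% in the unstimulated libraries. Mitochondrially encoded genes took 0.793%, 0.797% and 0.514%, against 0.477% to 0.540% unstimulated. These quality values therefore move with the split between the libraries. In WT cells the ribosomal RNA-overlapping share was 0.217% to 1.58% unstimulated and 0.417% to 0.532% with DMSO and LPS. With defactinib and LPS it was 2.49% to 3.33% in IRF5 KO cells and 3.98% to 6.10% in WT cells. The part of these values in the split was not tested. Depth was similar, between 39282181 and 55262814 counts per library over the 6. For these reasons each stimulated library is given separately throughout, always in the order of replicates 1, 2 and 3, as CPM, the count of a gene scaled to a common library size with TMM factors.

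Irf5 (ENSMUSG00000029771, mm10 chr6:29526625-29541871, plus strand) was measured first. It stood at 335, 397 and 364 CPM in unstimulated IRF5 KO cells and at 435, 431 and 345 CPM after LPS, while unstimulated WT cells held 587, 606 and 650.3 CPM and stimulated WT cells 434, 475 and 443 CPM. The unstimulated libraries of the genotypes did not overlap, but the stimulated ones did, and reads over the gene were plentiful in every IRF5 KO library. The count sums over all exons and does not show which of them the knockout allele lacks, so it is no check of the genotype labels. The LPS difference of Irf5 within IRF5 KO cells was 0.14 ± 0.16 (SE, adjusted p = 0.5) on the log2 scale and did not pass the test.

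**Figure D1:**
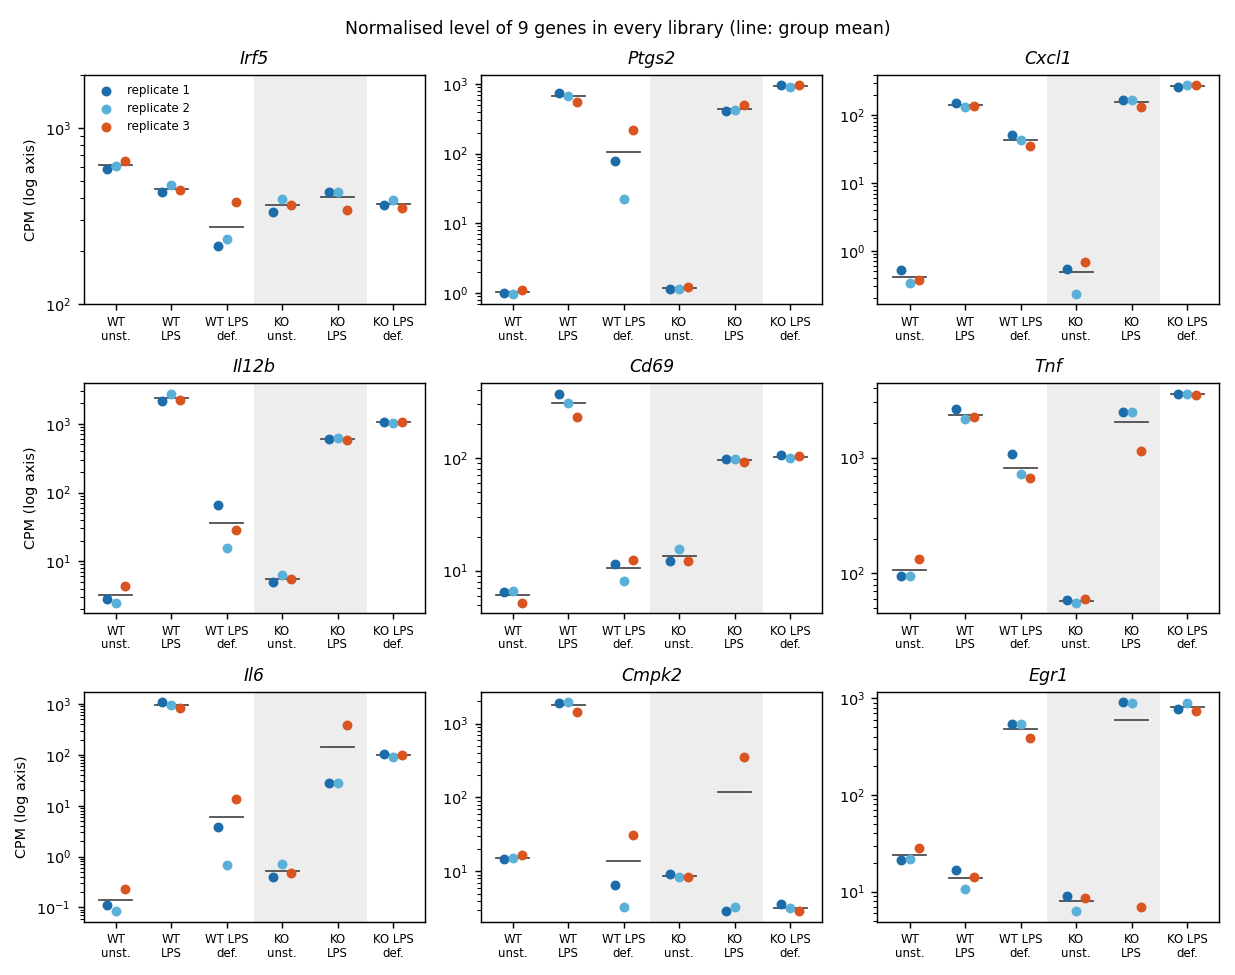
CPM on log axes of Irf5, the induced genes Ptgs2, Cxcl1, Il12b and Cd69, and the genes Tnf, Il6, Cmpk2 and Egr1 in all 18 libraries. Each point is a library coloured by replicate, horizontal bars are group means, unst. is unstimulated, def. is defactinib, and the comparison described here is shaded. In Ptgs2, Cxcl1, Il12b and Cd69 the 3 stimulated IRF5 KO points sit together, whereas in Il6 and Cmpk2 replicate 3 lies above the others and in Egr1 below them.

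LPS changed 2091 genes in IRF5 KO cells over the 3 libraries together (13.3% of those tested), 1108 higher (7.07%) and 983 lower (6.28%). A gene was called when edgeR's quasi-likelihood test gave a Benjamini-Hochberg adjusted p below 0.05 and the change exceeded 2-fold. These counts rested on which libraries entered. Without replicate 3 the test called 4207 genes, without replicate 1 it called 1037 and without replicate 2 it called 1067. With replicate 3 as the only stimulated library 452 genes were called, 445 of them higher (2.66%). The share of all tested genes called lower was 1.47%, 1.47% and 16.6% without replicates 1, 2 and 3, and the share called higher 4.99%, 5.18% and 9.64%. Counts for gene groups without a library, given below, are to be read against these shares. Of the 1108 genes called higher, 996, 1017 and 453 exceeded 2-fold in replicates 1, 2 and 3, and of the 983 called lower, 966, 969 and 77 did so. The lower calls thus rested on replicates 1 and 2. A fit of the 6 libraries alone, with fewer libraries to estimate the spread, called 148 genes higher and 5 lower. Of the genes named here as called, Il6, Il12a, Ccl3, Tnfaip3, Rel, Zfp36, Egr1, Fos, Jun, Ier2, Malat1, Gm12940, Gm26917, Hspa1a, Rsad2, Ifit1, Cmpk2, Cd14, Tlr4, Fam198b, Ly6g and Prss34 lost their call in that fit.

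To find responses shared by all libraries, a gene was counted as responding alike when it was called, lay more than 2-fold from the unstimulated mean in each of the 3 stimulated libraries, and its 3 log2 differences spanned no more than 1. By this rule 155 genes rose alike (0.99% of those tested) and 29 fell alike (0.185%). Of the 155, 122 were protein coding and 65 had a mean of at least 3 on the log2 CPM scale. In 40 of them each library exceeded 4-fold and in 17 each exceeded 8-fold. Replicate 3 gave the lowest of the 3 values in 81 of these genes and the highest in 51. As the rule uses the closeness of the libraries, that closeness is a description and carries no test. Scaling by library size alone, in place of TMM, shifted the median change of all genes from 0.0063 to -0.23 on the log2 scale, and took Ccl22, Casp4, Mmp13, S100a8 and S100a9, described below, just under 2-fold, at 0.95, 0.94, 0.92, 0.83 and 0.96.

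**Figure D2:**
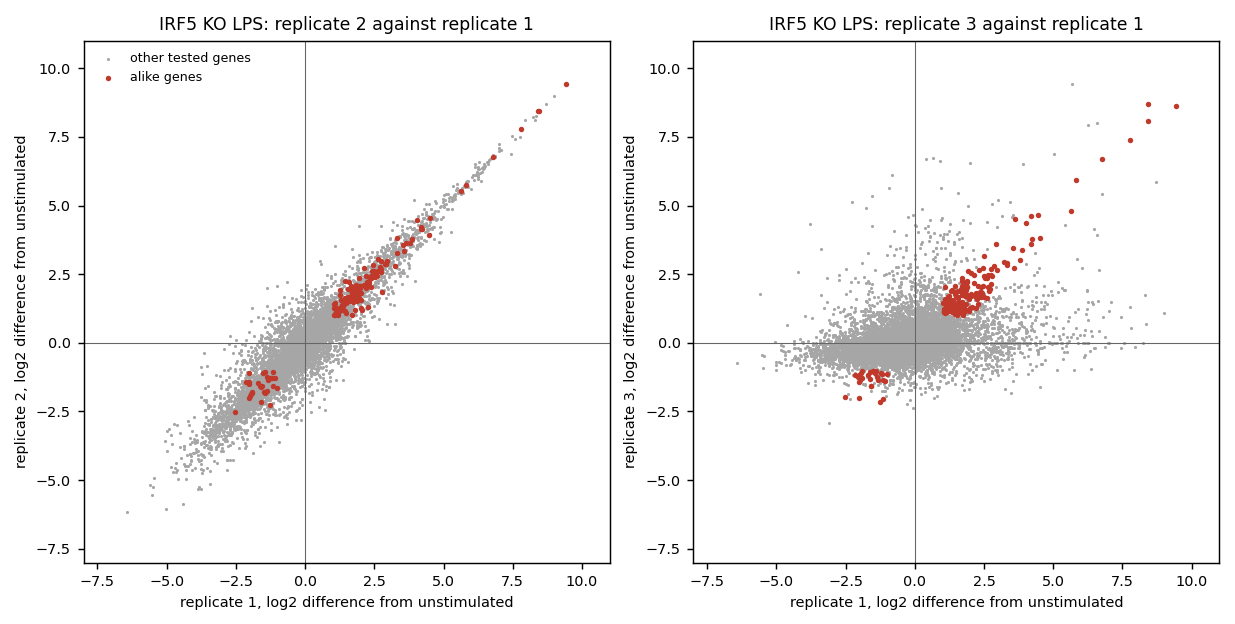
Log2 difference from the unstimulated IRF5 KO mean for each tested gene, with replicate 1 on the horizontal axis and replicate 2 or replicate 3 on the vertical axis. Replicate 2 follows replicate 1 closely, whereas in replicate 3 only 951 genes lie more than 2-fold above and 251 more than 2-fold below the unstimulated mean, against 1660 and 2877 in replicate 1.

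The enzyme of prostaglandin synthesis Ptgs2, also known as COX-2, rose alike by the largest margin among the abundant genes. Ptgs2 (ENSMUSG00000032487, mm10 chr1:150100031-150108227, plus strand) stood at 1.14, 1.14 and 1.20 CPM in unstimulated libraries and at 411, 422 and 498 CPM after LPS. Every stimulated library thus lay far above every unstimulated one, with a log2 fold change of 8.58 ± 0.66 (SE, adjusted p = 1.03e-06). Ptges, the prostaglandin E synthase that acts after it, went from 4.91, 3.81 and 5.03 to 11.6, 11.7 and 10.02 CPM, again without overlap, a log2 fold change of 1.28 ± 0.24 (SE, adjusted p = 0.00204). Of 30 tested inflammatory enzymes and effectors, 10 were called higher and 1 lower, and 5 rose alike. The other 3 were Mmp13, a collagenase, with 231, 237 and 230.0 CPM after LPS against 113, 92.2 and 108 before; Nlrp3, the inflammasome sensor, with log2 differences of 1.89, 1.91 and 1.21; and Casp4, the caspase that senses intracellular LPS, with 1.17, 1.24 and 1.13. Without replicate 3, 5 genes of this group were called higher and 2 lower.

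Among chemokines, which recruit leukocytes, 10 of 22 tested genes were called higher and 3 rose alike. Cxcl1, a neutrophil attractant (ENSMUSG00000029380, mm10 chr5:90891241-90893115, plus strand), stood at 0.545, 0.231 and 0.688 CPM before and 169.6, 170.2 and 134 CPM after LPS. Its stimulated values were close together and far from the unstimulated ones, with a log2 fold change of 8.32 ± 0.28 (SE, adjusted p = 4.55e-11). Ccl4, which attracts monocytes and T cells, went from 93.6, 69.7 and 82.1 to 465, 457 and 723 CPM (2.74 ± 0.24 (SE, adjusted p = 2.28e-06)). Ccl22, a ligand of CCR4, was already abundant at 2544, 3289 and 2497 CPM and reached 6064, 6072 and 6803 CPM (1.18 ± 0.12 (SE, adjusted p = 1.38e-05)). In Ccl4 and Ccl22 too, no stimulated library overlapped an unstimulated one.

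Of 38 tested cytokine genes 21 were called higher and 2 lower, and 7 rose alike: Il12b, Il1a, Ifnb1, Ebi3, Clcf1, Areg and Ereg. Il12b encodes the p40 subunit shared by IL-12 and IL-23 (ENSMUSG00000004296, mm10 chr11:44400063-44414033, plus strand). It stood at 5.02, 6.27 and 5.45 CPM unstimulated and 610.2, 616 and 577 CPM after LPS, a log2 fold change of 6.75 ± 0.44 (SE, adjusted p = 1.4e-07), with stimulated libraries within a narrow band. Il1a, the alarmin interleukin-1 alpha, went from 83.5, 66.6 and 81.6 to 957, 953 and 1763 CPM (3.99 ± 0.51 (SE, adjusted p = 0.000173)). Its replicate 3 was the highest and the span of its log2 differences, 3.64, 3.63 and 4.52, lay just inside the limit. Ebi3, a subunit of IL-27 and IL-35, went from 25.5, 27.6 and 30.1 to 64.7, 62.6 and 70.7 CPM (1.25 ± 0.19 (SE, adjusted p = 0.000522)), and Clcf1, a cytokine of the IL-6 family, showed log2 differences of 2.43, 2.56 and 1.82. Without replicate 3 the test called 16 cytokine genes higher and 5 lower, and with replicate 3 alone 22 higher.

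Interferon beta itself, Ifnb1 (ENSMUSG00000048806, mm10 chr4:88522025-88522774, minus strand), was induced in every stimulated IRF5 KO library. It had 1 read in all unstimulated IRF5 KO libraries together and 1352, 1213 and 950 reads in the stimulated ones, which is 32.8, 32.2 and 18.6 CPM. The ratio was 4512 with an exact 95% counting interval from 809 to 178300, an interval that covers counting error only. The epidermal growth factor family ligands Areg and Ereg also rose alike. Areg went from 0.171, 0.154 and 0.354 to 12.6, 11.6 and 7.06 CPM (5.53 ± 0.46 (SE, adjusted p = 1.71e-06)) and Ereg from 0.0779, 0.077 and 0.138 to 30.3, 30.5 and 23.2 CPM (8.15 ± 0.67 (SE, adjusted p = 2.05e-06)).

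Among 33 tested NF-κB subunits and early NF-κB targets 15 were called higher and 6 rose alike. Sdc4, a heparan sulphate proteoglycan (ENSMUSG00000017009, mm10 chr2:164424247-164443887, minus strand), went from 10.4, 8.18 and 9.56 to 172, 165 and 230.1 CPM (4.33 ± 0.15 (SE, adjusted p = 4.55e-11)). Ccrl2, a chemerin-binding receptor (ENSMUSG00000043953, mm10 chr9:111054486-111057519, minus strand), went from 11.7, 8.64 and 10.1 to 233, 237 and 143 CPM (4.33 ± 0.22 (SE, adjusted p = 5.66e-09)). Cflar, which restrains caspase-8, went from 122, 129 and 123 to 809, 810.0 and 464 CPM (2.48 ± 0.23 (SE, adjusted p = 5.16e-06)). In these genes the stimulated and unstimulated libraries did not overlap, with replicate 3 the highest in Sdc4 and the lowest in Ccrl2 and Cflar. The remaining genes were Icam1, a leukocyte adhesion molecule, Nfkb1, which encodes p105 and p50, and Nfkbib, an inhibitor of NF-κB, with log2 differences of 1.34, 1.34 and 1.20, of 1.52, 1.54 and 1.03 and of 1.79, 1.82 and 1.17. Over the 33 genes the median log2 differences were 0.50, 0.51 and 1.04 in replicates 1, 2 and 3. In 6 of the 33 genes replicate 3 alone exceeded 2-fold, against 3.28% of all tested genes. In 1 of them replicates 1 and 2 did without it, against 6.55% of all tested genes. With replicate 3 as the only stimulated library 19 genes of this group were called higher.

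Regulators that limit or shape the response rose alike as well. Peli1, an E3 ubiquitin ligase of TLR signalling, went from 24.01, 26.1 and 22.7 to 189.8, 193 and 153 CPM (2.88 ± 0.13 (SE, adjusted p = 1.07e-09)). Of 30 tested feedback regulators 14 were called higher and 3 lower, and 5 rose alike. Without replicates 1, 2 and 3 the lower calls were 0, 1 and 8. The genes that rose alike were the MAP kinase phosphatases Dusp2 and Dusp4, with log2 differences of 3.55, 3.56 and 3.44 and of 1.26, 1.26 and 1.23, Rgs1, a regulator of G protein signalling (2.71, 2.76 and 1.96), Spry1, an inhibitor of receptor tyrosine kinase signalling (1.25, 1.20 and 1.44), and Zc3h12c, an RNase of the Regnase family (1.75, 1.74 and 1.17). Map3k8, the kinase TPL2 that links NF-κB p105 to ERK, showed 1.97, 1.98 and 1.61 and was the only gene of 30 tested TLR4 receptor and signalling genes that rose alike, where 3 were called higher and 4 lower (0, 0 and 6 lower without replicates 1, 2 and 3).

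Of 41 tested costimulation and surface receptor genes 5 were called higher and 11 lower, and 3 rose alike. Cd69, an early activation antigen (ENSMUSG00000030156, mm10 chr6:129267325-129275436, minus strand), went from 12.3, 15.6 and 12.3 to 97.6, 98.5 and 92.7 CPM (2.85 ± 0.18 (SE, adjusted p = 8.06e-08)). Cd80, the ligand of CD28 and CTLA-4, went from 41.2, 51.6 and 39.7 to 144, 145 and 146 CPM (1.72 ± 0.21 (SE, adjusted p = 7.55e-05)). Adora2a, an adenosine receptor, showed log2 differences of 1.89, 1.78 and 2.23. As over all genes, the lower calls of this group moved with the library left out, to 3, 4 and 18 without replicates 1, 2 and 3, against 236, 236 and 2661 of all genes.

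Other abundant genes completed the 15 that rose alike by the largest margin. Cited2, a transcriptional coregulator that binds CBP and p300, went from 19.8, 18.3 and 20.3 to 122, 119 and 79.8 CPM, and Marcksl1, an actin-associated protein, from 134, 153 and 141 to 536, 536 and 863 CPM. Adgrg6, an adhesion G protein-coupled receptor, showed log2 differences of 1.87, 1.95 and 2.03 and the unnamed transcript A630072M18Rik of 2.93, 2.89 and 3.61. Among 27 tested immediate-early genes Maff, a small MAF transcription factor, was the only one that rose alike (1.72, 1.75 and 1.09). The neutrophil-associated alarmin subunits S100a8 and S100a9 rose alike from 31.6, 25.5 and 25.1 to 58.4, 55.5 and 57.5 CPM and from 28.2, 26.3 and 24.4 to 61.3, 58.6 and 60.4 CPM, as did Ly6g, a neutrophil marker, at 1.09, 1.09 and 0.9 CPM after LPS, and Prss34, a mast cell and basophil protease, at 0.824, 0.795 and 0.841 CPM. Ly6g and Prss34 were near the limit of detection, and their calls were lost without unstimulated replicate 2, at 1.18 and 1.94 on the log2 scale, as was that of Ly6g without unstimulated replicate 3 (1.35) or stimulated replicate 1 (1.43) or 2 (1.43). S100a8 fell just under 2-fold without unstimulated replicate 3, at 0.998.

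**Figure D3:**
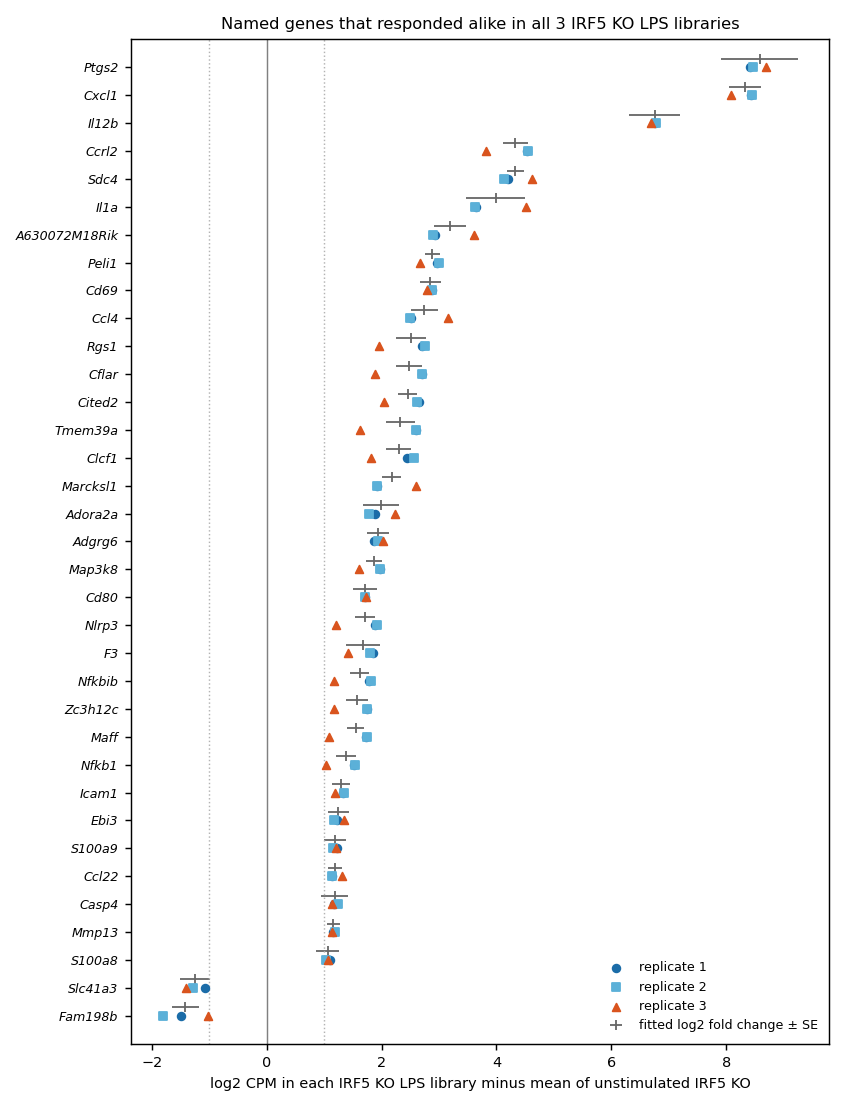
Log2 difference from the unstimulated IRF5 KO mean in each of the 3 stimulated libraries (points coloured by replicate) for the named genes that rose or fell alike. The points of a gene lie within 1 log2 unit of each other by the rule that chose them, from about 8.4 to 8.7 in Ptgs2 down to just above 1 in S100a8.

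Few abundant genes fell alike. Of the 29, 2 reached a mean of 3 on the log2 CPM scale. Slc41a3, a magnesium transporter family member, went from 31.99, 30.7 and 32.7 to 15.03, 13.02 and 12.04 CPM (-1.25 ± 0.26 (SE, adjusted p = 0.00374)), and Fam198b, a Golgi protein, from 15.4, 11.8 and 14.3 to 4.85, 3.90 and 6.75 CPM (-1.42 ± 0.24 (SE, adjusted p = 0.00114)). In both genes every stimulated library lay below every unstimulated one. With replicate 3 as the only stimulated library neither passed the test.

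The limits of the rule fell among known LPS targets. Just inside the span limit was Tmem39a, with log2 differences of 2.59, 2.60 and 1.63, and just outside were Nfkbid, an inhibitor of NF-κB (2.36, 2.33 and 1.32), and Tnf (5.43, 5.43 and 4.30). At the 2-fold limit S100a8 was just inside. Tmem39a and Nfkbid were chosen after their values were seen. Among all 335 called genes that exceeded 2-fold upwards in each library, 155 met the span limit.

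Promoter sequence was examined because the genes above rose together. RefSeq promoter windows (GRCm38.p6, 250 bases before to 50 after each start) were found for 103 of the 155 genes, in 124 windows, and for 10661 of the 15663 tested genes, in 13542 windows. The NF-κB consensus was present on either strand in 14.5% of the windows of genes that rose alike and in 5.35% of all windows. The consensus was also present in 4 of 27 windows (14.8%) of genes split between the libraries, too few to compare the shares. These were the 35 genes with a mean of at least 3 on the log2 CPM scale that lay more than 2-fold above the unstimulated mean in replicates 1 and 2 and below it in replicate 3, of which 22 had a window. Among 81 windows of 58 genes with the reverse split the share was 8.64%. For the TATA box, TATAAA, the shares in genes that rose alike and in all windows were 14.5% and 7.44%, for the AP-1 motif TGANTCA 8.06% and 5.43%, and for the interferon-stimulated response element (ISRE, GAAA, any 2 bases, GAAA) 5.65% and 3.37%. A match is a description of the letters and not evidence of binding. The sequences below, each printed 5′ to 3′ on the strand of its gene, are stretches just before the RefSeq start of genes that rose alike. These genes are shown because they hold an NF-κB consensus match, and capitals mark the matches. They lie at chr5:90891125-90891244 (plus strand), chr2:164443189-164443308 (minus), chr9:111057519-111057638 (minus), chr17:55952503-55952622 (plus) and chr4:88522795-88522974 (minus).
Cxcl1: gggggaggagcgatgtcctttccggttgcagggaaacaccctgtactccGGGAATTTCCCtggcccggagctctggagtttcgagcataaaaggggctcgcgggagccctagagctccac
Sdc4: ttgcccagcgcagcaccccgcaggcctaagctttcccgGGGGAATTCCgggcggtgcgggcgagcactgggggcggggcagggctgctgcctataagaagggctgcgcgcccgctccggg
Ccrl2: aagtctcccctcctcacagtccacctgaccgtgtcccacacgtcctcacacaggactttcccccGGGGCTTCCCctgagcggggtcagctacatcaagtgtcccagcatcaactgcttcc
Ebi3: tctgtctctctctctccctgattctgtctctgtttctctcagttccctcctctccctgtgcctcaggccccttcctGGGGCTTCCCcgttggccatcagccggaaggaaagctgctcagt
Ifnb1: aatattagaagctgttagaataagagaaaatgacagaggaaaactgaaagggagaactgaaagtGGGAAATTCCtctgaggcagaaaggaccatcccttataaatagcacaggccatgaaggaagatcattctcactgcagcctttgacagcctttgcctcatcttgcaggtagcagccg

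In Cxcl1 the capitals cover 2 overlapping matches, and in Ifnb1 the match lies 116 bases before the start, inside the stretch known as the interferon beta enhancer. Il1a, one of the genes that rose alike with replicate 3 the highest, held in chr2:129309973-129310092 (minus strand) an AP-1 match 12 bases before its start, in capitals.
Il1a: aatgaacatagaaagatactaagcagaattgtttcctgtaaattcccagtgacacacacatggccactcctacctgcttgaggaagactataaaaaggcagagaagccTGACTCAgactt

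Many LPS cytokines rose in every stimulated library but not to a like level. Tnf (ENSMUSG00000024401, mm10 chr17:35199381-35202007, minus strand) went from 58.3, 55.9 and 59.4 CPM to 2490.5, 2495 and 1142 CPM, a log2 fold change of 5.14 ± 0.29 (SE, adjusted p = 2.48e-08), with replicate 3 below the others and still far above every unstimulated library. Il6 (ENSMUSG00000025746, mm10 chr5:30013114-30019981, plus strand) went from 0.405, 0.712 and 0.472 CPM to 28.3, 27.9 and 382 CPM (8.11 ± 1.23 (SE, adjusted p = 0.000649)), so that replicate 3 was the highest by a wide margin. Il1b went from 55.4, 47.7 and 52.5 to 563, 568 and 1825 CPM (4.25 ± 0.74 (SE, adjusted p = 0.00165)). Il23a, the p19 subunit of IL-23, went from 0.0935, 0.0962 and 0.138 to 14.2, 14.4 and 38.8 CPM (7.67 ± 0.59 (SE, adjusted p = 9e-07)). Il1b and Il23a shared with Il6 the order in which replicate 3 stood above replicates 1 and 2, and in none of them did stimulated and unstimulated libraries overlap.

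The remaining named cytokines and chemokines split in the same ways. Il12a, the p35 subunit of IL-12, was at 0.509, 0.583 and 2.60 CPM after LPS against 0, 0.077 and 0.059 CPM before (4.79 ± 1.36 (SE, adjusted p = 0.0154)), a call lost without unstimulated replicate 1 (4.15) or stimulated replicate 3 (3.61). Il10, an anti-inflammatory cytokine, had 2, 4 and 16 reads after LPS and 2 reads in all unstimulated libraries together, a ratio of 14.1 with an exact 95% counting interval from 3.47 to 124, and its call was lost without replicate 3. The chemokines Ccl3 and Ccl5 were at 448, 452 and 1062 CPM and at 151, 148 and 361 CPM after LPS, against 212, 198 and 205 and 19.2, 19.3 and 19.6 before. Cxcl10, a ligand of CXCR3 chosen with the next genes after its values were seen, went from 2.60, 2.29 and 2.07 to 180.2, 189 and 576 CPM (7.08 ± 0.46 (SE, adjusted p = 1.67e-07)). In contrast Cxcl2, a neutrophil attractant, reached 2374, 2334 and 955 CPM from 24.03, 19.6 and 22.9, and Lif, a cytokine of the IL-6 family, 71.3, 69.6 and 31.9 CPM from 4.32, 5.14 and 3.70, both with replicate 3 the lowest. Csf2, which encodes GM-CSF, reached 6.37, 5.89 and 1.25 CPM from 0.0467, 0.0577 and 0.

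A few regulators of NF-κB outside the alike set were called higher with replicate 3 below the others, unlike the median of their list. Nfkbiz, the nuclear IκB protein IκBζ, went from 5.42, 6.23 and 4.94 to 2318, 2306 and 322 CPM (8.22 ± 0.62 (SE, adjusted p = 8.46e-07)), and Tnfaip3, the deubiquitinase A20, from 60.9, 60.6 and 56.01 to 3880.4, 3927 and 391 CPM (5.53 ± 0.61 (SE, adjusted p = 4.24e-05)). Nfkbia, which encodes IκBα, stood at 904, 892 and 373 CPM against 123, 123 and 123 before, and Rel at 601, 601 and 269.5 CPM against 112, 143 and 114. Each stimulated library of these genes exceeded each unstimulated one, and replicate 3 was the lowest of the stimulated libraries in all of them. Nfkbiz, Nfkbia and Rel were chosen after their values were seen.

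The interferon-stimulated genes separated the libraries most clearly among the lists. All 60 were tested. EdgeR called 13 higher, DESeq2 11 and limma-voom 4, none of the 3 called any lower (16 higher and 0 lower at an unadjusted p under 0.05), and none rose alike. Their median log2 difference was -0.77, -0.72 and 1.72 in replicates 1, 2 and 3, whereas the median over all tested genes was -0.0019, -0.0002 and -0.047. In 35 of the 60 replicate 3 alone was more than 2-fold above the unstimulated mean, as in 513 of all 15663 tested genes (3.28%), and in none were replicates 1 and 2 so without replicate 3. Without replicate 3, 1 of these genes was called higher and 13 lower, the latter near the share of 16.6% over all genes, and with replicate 3 as the only stimulated library 16 were called higher, against 2.66% of all genes.

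Cmpk2, a mitochondrial nucleotide kinase induced by interferon, gave the widest gap of this kind among the abundant genes. It stood at 9.19, 8.35 and 8.34 CPM unstimulated and at 2.93, 3.26 and 351 CPM after LPS, against 3.62, 3.16 and 2.90 CPM in the IRF5 KO libraries with defactinib and LPS. Its log2 fold change over the 3 libraries, 3.79 ± 1.32 (SE, adjusted p = 0.0356), became -1.48 without replicate 3, and its call was lost without any 1 of the unstimulated libraries (3.84, 3.77 and 3.76 without replicates 1, 2 and 3). Replicates 1 and 2 thus lay below all unstimulated libraries and replicate 3 far above them. Irgm1, an interferon-inducible GTPase, showed log2 differences of -2.74, -2.69 and 2.29, Slfn8 of -2.48, -2.26 and 2.70, Slfn1 of -3.27, -3.63 and 1.26, Trim21, an antibody receptor and ubiquitin ligase, of -3.18, -3.01 and 1.504, and Hivep3, a zinc finger protein, of -3.39, -3.13 and 1.74. These 6 genes were selected for the gap, which is therefore given without a test. Rsad2, the antiviral enzyme viperin, and Ifit1, a sensor of viral RNA, both chosen after their values were seen, stood at 14.6, 13.04 and 1134 and at 11.1, 10.8 and 574 CPM after LPS, against 9.86, 12.4 and 10.8 and 5.92, 5.87 and 5.64 before. Without replicate 3 their log2 fold changes were 0.33 and 0.91 and neither was called, and Rsad2 also lost its call without unstimulated replicate 3 (5.12). Ifnb1, which encodes a known inducer of these genes, was in contrast higher in replicates 1 and 2 than in replicate 3.

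Among the 72 genes with a mean of at least 3 on the log2 CPM scale, replicate 3 more than 2-fold above and replicates 1 and 2 to any degree below the unstimulated mean, the ISRE was found in 12.3% of 81 promoter windows, against 3.37% of all windows. The AP-1 motif and the TATA box also had higher shares there than in all windows, 9.88% against 5.43% and 11.1% against 7.44%. The sequences of Slfn8 (chr11:83020811-83020930, minus strand) and Irgm1 (chr11:48871421-48871540, minus strand) before their RefSeq starts are shown because they hold ISRE matches. Capitals mark these alone, and in Slfn8 they lie on the opposite strand.
Slfn8: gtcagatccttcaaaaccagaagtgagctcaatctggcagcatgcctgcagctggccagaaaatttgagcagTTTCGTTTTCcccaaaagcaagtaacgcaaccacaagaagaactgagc
Irgm1: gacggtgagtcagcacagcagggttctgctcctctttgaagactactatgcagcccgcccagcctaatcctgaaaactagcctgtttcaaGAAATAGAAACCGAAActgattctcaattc

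The immediate-early genes, which respond to a stimulus within minutes without new protein synthesis, showed the opposite split. Of 27 tested, 13 were called higher and 3 lower, with median log2 differences of 0.90, 0.89 and 0.06 in replicates 1, 2 and 3. In 11 of them replicates 1 and 2 exceeded 2-fold and replicate 3 did not, as in 1026 of all 15663 tested genes (6.55%). The lower calls were 3, 2 and 6 without replicates 1, 2 and 3, and with replicate 3 as the only stimulated library 3 were called higher. Egr1, a zinc finger transcription factor, stood at 8.94, 6.29 and 8.63 CPM unstimulated and 916, 885 and 6.99 CPM after LPS, against 771, 896 and 747 CPM with defactinib and LPS. Replicate 3 lay within the range of the unstimulated libraries, which the other replicates exceeded by far. The AP-1 subunits Fos and Jun showed log2 differences of 3.38, 3.32 and -0.61 and of 2.96, 2.94 and -0.28, the immediate-early gene Ier2 of 3.28, 3.28 and -0.13, the nuclear long noncoding RNA Malat1 of 2.08, 2.13 and -0.01, and the unnamed transcript Gm12940 of 3.58, 3.57 and -0.06. These 6 genes too were selected for the gap, and no test of it is given. Zfp36, which encodes the mRNA-destabilising protein TTP and was chosen after its values were seen, stood at 604, 599 and 80.3 CPM after LPS against 68.2, 68.4 and 73.4 before.

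Transcripts that mark ribosomal and nuclear RNA followed the immediate-early genes. Of 11 tested rRNA-overlapping and nuclear RNAs 6 were called higher, with medians of 2.503, 2.13 and 0.22 in replicates 1, 2 and 3, and with replicate 3 as the only stimulated library 0 were. Gm26917, which overlaps ribosomal RNA repeats, stood at 47.00, 55.8 and 56.4 CPM unstimulated and at 26817, 26679 and 113 CPM after LPS. The 13 mitochondrially encoded mRNAs had medians of 0.74, 0.83 and 0.04, and edgeR, DESeq2 and limma-voom called none, with 10 higher at an unadjusted p under 0.05, whereas edgeR called 4 higher without replicate 3. Of 14 tested heat shock genes 3 were called higher, among them the inducible HSP70 gene Hspa1a, chosen after its values were seen, with 75.3, 73.7 and 2.45 CPM against 0.888, 0.77 and 0.865, whose reads are uncertain because Hspa1b is a near-identical copy. The part of RNA quality in these values was not tested.

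**Figure D4:**
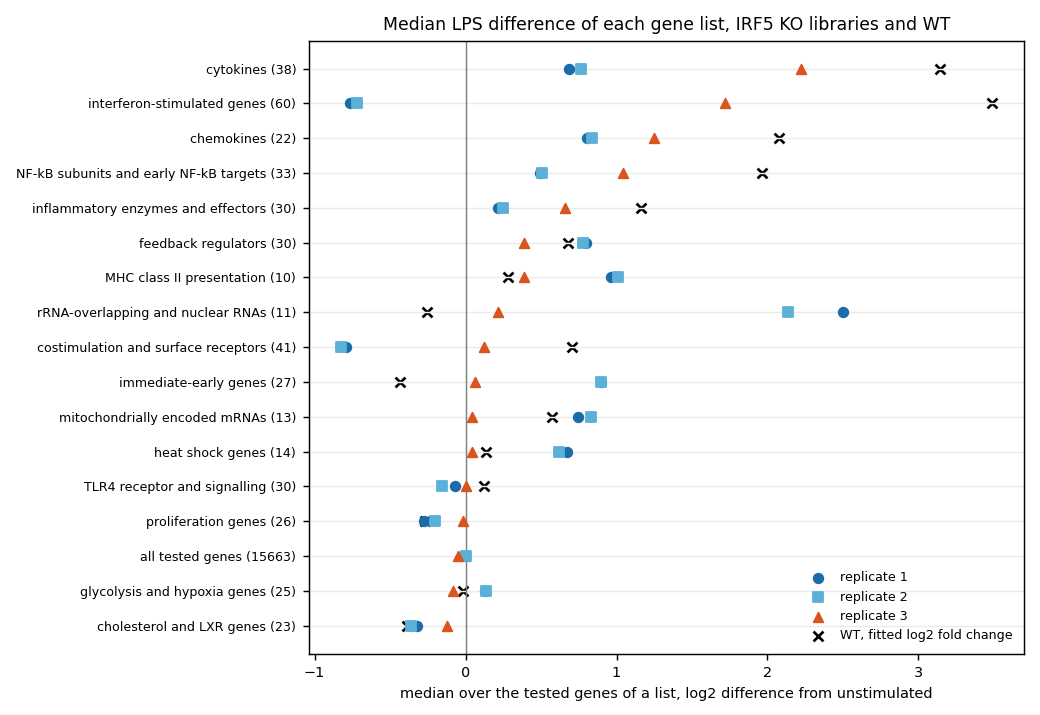
Median log2 difference from unstimulated over the tested genes of each list, for the 3 stimulated IRF5 KO libraries (replicates 1, 2 and 3) and for the fitted WT change. The interferon-stimulated genes have medians of -0.77 and -0.72 in replicates 1 and 2, 1.72 in replicate 3 and 3.49 in WT, and the immediate-early genes medians of 0.90, 0.89 and 0.06 and -0.43 in WT.

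The LPS receptor gene itself fell. Tlr4, chosen after its values were seen, stood at 121, 99.8 and 118 CPM unstimulated and 12.9, 12.6 and 70.2 CPM after LPS (-1.82 ± 0.52 (SE, adjusted p = 0.016)). All stimulated libraries were below the unstimulated ones, replicate 3 least so, and without replicate 1 or without replicate 2 the call was lost, at -1.43 and -1.42. Its co-receptor Cd14 rose instead, to 191, 192 and 329 CPM from 112, 90.1 and 116 (1.17 ± 0.24 (SE, adjusted p = 0.00337)). Without replicate 3 Cd14 was at 0.85 and under the 2-fold limit. Over the 30 genes of the pathway the medians were -0.07, -0.16 and 0.0003, close to those of all tested genes.

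In several other groups the calls were few or near the share of all tested genes. By edgeR none of 25 tested glycolysis and hypoxia genes was called, with 7 higher and 4 lower at an unadjusted p under 0.05, 1 called by limma-voom and 0 by DESeq2. Of 23 cholesterol and LXR genes 2 were lower and of 26 proliferation genes 2 were lower, numbers too small to set apart from the 6.28% of all tested genes called lower. None of 10 tested genes of antigen presentation by MHC class II was called by edgeR, with 7 higher at an unadjusted p under 0.05, 1 called by DESeq2 and 0 by limma-voom, although their medians were 0.96, 1.01 and 0.39. Cd74, the invariant chain, stood at 16165, 16094 and 10089 CPM after LPS and 7115, 8618 and 7397 before, a difference of 0.87 ± 0.17 (SE, adjusted p = 0.00275) that passed the adjusted p but not the 2-fold limit, and without replicate 3 the test called 5 of the 10 higher and 1 lower. Without replicate 3 it called 2 glycolysis, 6 cholesterol and 8 proliferation genes lower, where 2661 of all 16037 tested genes (16.6%) were called lower.

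The response was then set beside that of WT macrophages, which share no library with it. LPS called 1819 genes higher (11.6% of those tested) and 1521 lower (9.71%) in WT. Of the 155 genes that rose alike in IRF5 KO cells 136 (87.7%) were called higher in WT and 19 were not called, and of the 29 that fell alike 15 (51.7%) were called lower. All 60 interferon-stimulated genes were called higher in WT, with a median log2 fold change of 3.49.

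**Figure D5:**
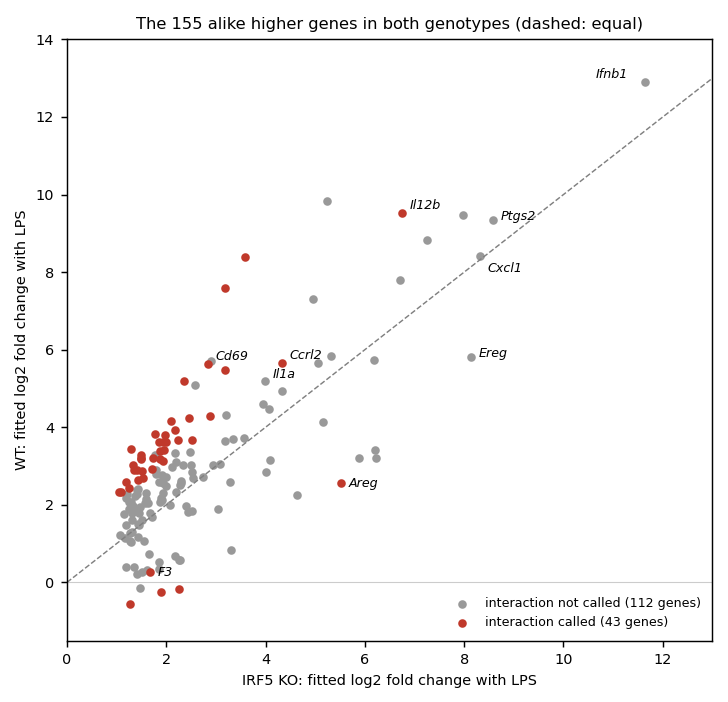
Fitted log2 fold change with LPS of the 155 genes that rose alike, in IRF5 KO cells (horizontal) and WT cells (vertical), coloured by the interaction test, with a dashed line where both are equal. Most points lie above the line, and 38 are called as larger in WT and 5 as larger in IRF5 KO. The position of Ifnb1, with 1 unstimulated read, depends on the prior count of the fit.

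Whether the size of the response differed was tested with the genotype by LPS interaction, the WT log2 fold change minus the IRF5 KO one. It was positive and called at 992 genes (6.33% of those tested) and negative and called at 547 (3.49%). These counts also moved with the library: 3778 genes were called in all without replicate 3 and 1083 with replicate 3 as the only stimulated IRF5 KO library. Among the 155 genes 38 were larger in WT, 5 were larger in IRF5 KO and 112 were not called, counts that are a description because the same IRF5 KO libraries chose the genes.

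For some inductions the difference between the genotypes did not pass the test. Cxcl1 reached 152, 132 and 139 CPM in stimulated WT cells, which overlaps the IRF5 KO values, and its interaction was 0.09 ± 0.35 (SE, adjusted p = 0.884). For Ccl4 it was -0.03 ± 0.31 (SE, adjusted p = 0.956) and for Ptgs2, at 752, 683 and 557 CPM in WT, 0.77 ± 0.74 (SE, adjusted p = 0.486). For Nlrp3 it was -0.03 ± 0.24 (SE, adjusted p = 0.947) and for Dusp2 0.16 ± 0.38 (SE, adjusted p = 0.796). The SEs, 0.24 to 0.74, were derived from the F statistic and give only a rough measure of precision. Differences of that size or somewhat larger, in either direction, cannot be told from 0 here, so equal responses are not shown. For Tnf the interaction was -0.69 ± 0.34 (SE, adjusted p = 0.169), with 2611, 2143 and 2265 CPM in stimulated WT cells.

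Others rose alike in IRF5 KO cells but by less than in WT. Il12b reached 2137, 2759.5 and 2228 CPM in WT from 2.86, 2.503 and 4.35, above every IRF5 KO library, and its interaction was 2.77 ± 0.50 (SE, adjusted p = 0.00219). Cd69 reached 373, 309 and 230.1 CPM in WT (2.79 ± 0.25 (SE, adjusted p = 8.58e-06)) and Peli1 417, 463 and 448 CPM (1.42 ± 0.17 (SE, adjusted p = 0.00011)). The stimulated libraries of the genotypes did not overlap in Il12b, Cd69 or Peli1. Interactions in the same direction were called for Ccrl2 (1.32), Cited2 (1.78), Marcksl1 (1.76), Map3k8 (1.54), Cd80 (1.22), Adora2a (1.80), Adgrg6 (1.68), Casp4 (1.41) and A630072M18Rik (2.28). The interaction compares fold changes and so also depends on unstimulated levels. Unstimulated means of Cd69, Ccrl2 and Adgrg6 were 6.12, 6.20 and 16.5 CPM in WT, below 13.4, 10.1 and 26.0 CPM in IRF5 KO. That of Casp4 was higher in WT, 16.3 against 11.3 CPM. Il6 reached 1095, 950.2 and 833 CPM in WT, above all 3 IRF5 KO libraries, but with the spread between those its interaction of 4.63 ± 1.75 (SE, adjusted p = 0.0822) did not pass the test.

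A smaller set rose more in IRF5 KO cells. Areg went from 2.42, 2.47 and 3.98 to 19.9, 11.6 and 21.1 CPM in WT, a log2 fold change of 2.57 ± 0.37 (SE, adjusted p = 4.14e-05), and its interaction was -2.96 ± 0.57 (SE, adjusted p = 0.00293). The unstimulated WT level of Areg lay above that of every unstimulated IRF5 KO library, and the stimulated ranges overlapped. F3, tissue factor, which starts coagulation, rose alike in IRF5 KO cells from 16.8, 10.7 and 15.8 to 51.3, 49.5 and 37.9 CPM and was at 52.3, 52.3 and 71.02 before and 76.6, 55.3 and 79.8 CPM after LPS in WT (-1.41 ± 0.42 (SE, adjusted p = 0.0307)). F3 was chosen after its values were seen. As in Areg, the unstimulated values were lower in IRF5 KO than in WT.

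The cell type was checked against markers. In the 6 IRF5 KO libraries the summed level of 10 macrophage markers was 10634 to 15098 CPM unstimulated and 10216 to 12773 CPM after LPS, most of it from Lyz2, which held 12151, 8341 and 11684 and then 9648, 9797 and 7705 CPM. That of 8 dendritic cell markers was 3826 to 4146 CPM and then 6336, 6298 and 4763 CPM, most of it from Itgax and H2-Ab1. None of these 8 was called over the 3 libraries, and without replicate 3 H2-Ab1 and Flt3 were called higher, at 1.003 and 1.01 on the log2 scale, and Ciita lower, at -1.59. Ciita, the transactivator of MHC class II genes, stood at 148, 224 and 160.3 CPM unstimulated and 60.4, 57.4 and 229 CPM after LPS, so that replicates 1 and 2 lay below the unstimulated libraries and replicate 3 above them. Of the 10 macrophage markers Cd14 was called higher and none lower, while without replicate 3 Adgre1 was called higher and Fcgr1 and Mrc1 lower, at 1.14, -1.26 and -1.15 on the log2 scale, and Cd14 was not called. Over the 3 libraries together these genes and Mertk stayed under 2-fold. Adgre1, which encodes F4/80, stood at 294, 320.2 and 291 CPM unstimulated and 660.2, 671 and 365 CPM after LPS, and the Fc receptor gene Fcgr1 at 98.97, 89.6 and 93.4 and then 38.6, 40.3 and 71.03 CPM. The mannose receptor gene Mrc1 was at 75.3, 51.7 and 70.8 and then 29.1, 30.5 and 41.4 CPM, and Mertk, a receptor for apoptotic cells, at 48.3, 44.99 and 47.6 and then 25.8, 25.7 and 42.4 CPM. In these 4 genes, like Cxcr2 and Ciita chosen after their values were seen, replicate 3 lay nearer to the unstimulated libraries than replicates 1 and 2 did. The 11 neutrophil markers, which include S100a8, S100a9 and Ly6g, summed to 84.4 to 96.0 CPM unstimulated and to 165, 159 and 193 CPM after LPS, most of it from S100a8 and S100a9. Another of them, the chemokine receptor gene Cxcr2, was at 5.25, 9.62 and 5.88 CPM unstimulated and 0.194, 0.61 and 6.24 CPM after LPS, lower in replicates 1 and 2, and was called lower without replicate 3 (-4.12). In that fit S100a8, S100a9, Ly6g and Retnlg (1.995) were called higher. Retnlg, also chosen after its values were seen, went from 0.0779, 0.115 and 0.138 to 0.460, 0.424 and 0.0978 CPM. The 10 mast cell and basophil markers summed to 47.3 to 55.4 and then 43.9, 43.5 and 73.2 CPM, most of it from Gata2 and Kit. Cpa3 of this list went from 0.296, 0.192 and 0.433 to 1.07, 0.530 and 0.372 CPM and was called higher without replicate 3 (1.38). Markers of T, B and NK cells summed to 0.728 to 0.827 CPM unstimulated and to 1.70, 1.33 and 1.10 CPM after LPS, among which Cd79a, a subunit of the B cell receptor, was called higher with 34, 22 and 1 reads after LPS against 2 in all unstimulated libraries together. Klrb1c of the same list fell instead, from 0.343, 0.269 and 0.315 to 0, 0.0795 and 0.215 CPM, and was called lower without replicate 3 (-2.93). The immunoglobulin genes Igha and Igkc, no members of that list, rose alike, with 26, 21 and 18 and with 15, 13 and 15 reads after LPS against 1 and 3 in all unstimulated libraries together. These genes were chosen after their values were seen. Stromal markers summed to 1.83 to 3.23 and then 2.23, 2.92 and 3.42 CPM. In bulk RNA, more cells of a type and more RNA per cell cannot be told apart, and the part of other cells in the rise of S100a8, S100a9, Ly6g, Prss34, Cd79a, Igha and Igkc was not tested.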

How the data were processed

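The deposited table held counts of read pairs per gene for 18 libraries, made by the authors with STAR on mm10 and featureCounts 1.6.3 (per the file headers: reverse-stranded, exons summed by gene, uniquely mapped pairs); the annotation release is not given in the sources used here. From these counts edgeR 4.0.16 (R 4.3.3, limma 3.58.1) tested the 15663 of 50600 genes kept by filterByExpr, with TMM scaling, robust quasi-likelihood F tests, two-sided, and Benjamini-Hochberg adjustment, fitting all 18 libraries in 6 groups, the thresholds following the study's methods, which used DESeq2. CPM used TMM sizes, log2 CPM a prior count of 2. Each SE is the absolute log2 fold change divided by the square root of its F statistic. The test was also run on simulated data whose replicates were alike within each group. The stimulated libraries here were not, so that run does not bear on their calls, and its outcome is not given. Genes named were Irf5, the study's LPS cytokines and chemokines, the 3 most abundant genes of each list where discussed, the 15 alike higher and 10 alike lower genes of largest smallest-library difference with log2 CPM of at least 3 (2 such lower genes existed), 6 genes for each split between libraries, and alike genes of the lists. The members and lists were chosen with earlier results of these data known. RefSeq promoters were matched by symbol. Alternatives included DESeq2 1.42.0, limma-voom, other scalings and filters, and each library left out.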

Additional observations from a re-analysis of the deposited data

Results flagged for a closer look

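Of the 136 genes examined by name, 31 had an LPS response that differed between WT and IRF5 KO cells by the interaction test of edgeR (adjusted p below 0.05 and a difference beyond 2-fold), and these are given as the WT minus the IRF5 KO log2 change. The response was larger in WT for Rnf213 (3.37), Cd69 (2.79), Il12b (2.77), Nr4a3 (2.64), Cxcl10 (2.46), A630072M18Rik (2.28), Adora2a (1.80), Cited2 (1.78), Marcksl1 (1.76), Adgrg6 (1.68), Map3k8 (1.54), Cd14 (1.47), Peli1 (1.42), Casp4 (1.41), Il1rn (1.35), Ccrl2 (1.32), Cd80 (1.22) and Slc7a11 (1.15). It was lower in WT for Gm26917 (-7.74), Egr1 (-7.01), Hspa1a (-3.81), Ier2 (-3.60), Gm42418 (-3.10), Jun (-3.02), Areg (-2.96), Fos (-2.82), Gm12940 (-2.66), Zfp36 (-2.54), Lars2 (-2.25), F3 (-1.41) and Scd2 (-1.24). Egr1, Fos, Jun, Ier2, Gm12940, Gm26917, Gm42418, Lars2, Hspa1a and Zfp36 are genes whose stimulated IRF5 KO replicates 1 and 2 lay above replicate 3. With replicate 3 as the only stimulated library 14 of the 31 differences were called, 14 were not and 3 reversed. Among those not called were differences in both directions, and of those larger in WT Cd14 was then at 0.979, Il1rn at 0.988 and Rnf213 at 2.23. Without replicates 1, 2 and 3 in turn 23, 23 and 31 of the 31 were called. The genes examined by name were chosen with IRF5 KO values known, Egr1, Fos, Jun, Ier2 and Gm12940 for the gap between the stimulated libraries. These values enter the interaction test, so it is not independent of that choice. Dixon's test for a single outlying library was not run, since it is not used here for groups of 3.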

How the results depend on the processing

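Of 34 settings, 32 of them planned, 28 (26 planned) gave values for single genes. Over these the LPS changes of the 136 named genes kept direction and side of the threshold in 3679 of 3791 values, lost the call in 71, gained it in 30 and reversed in 11. For the interaction these counts were 3622 of 3794, 104, 63 and 5. The cause of these shifts was not tested. Scaling by library size alone called 1685 genes lower and 53 alike lower. A filter of 5 CPM in 3 libraries, which leaves fewer genes, called 1088, 429 of them higher, with 95 alike higher and 4 alike lower. Limma-voom called 683 higher and 1501 lower. Fitting only the groups compared called 153, 148 higher and 5 lower, with 102 alike higher and 3 alike lower. Without the fold limit 5878 were called, 2900 higher and 2978 lower, and 2681 for the interaction. Testing against the 2-fold limit itself (edgeR's glmTreat) called 327, all higher, and 0 lower (357 lower at an unadjusted p under 0.05), 108 for the interaction, and 72 alike higher and 0 alike lower. A limit of 1.5-fold per library gave 115 alike lower, a span of 0.5 gave 90 higher and 11 lower, and no span limit 335 and 62.

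Leaving out each library in turn gave 1037 to 4207 genes called, 801 to 1546 higher, 236 to 2661 lower and 1068 to 3778 for the interaction, with 142 to 1294 alike higher and 22 to 2294 alike lower. The highest counts were those without stimulated replicate 3, where 152 of the 155 and 24 of the 29 alike genes were retained, and lower calls were also fewer without unstimulated replicate 1 (653) or 3 (598). Without stimulated replicate 3 these genes reversed: Cmpk2 (-1.48, against up to 4.38 when another library was left out), Hivep3 (-3.29, 0.79), Irgm1 (-2.73, 1.36), Slfn8 (-2.39, 1.76) and Trim21 (-3.12, 0.59). An alternative chosen after seeing the data used replicate 3 as the only stimulated library, assumed to vary like the other groups. It called 452 genes, 445 higher and 7 lower, 286 of them also called with all 3 libraries, and reversed Egr1 (-0.17), Fos (-0.65), Gm12940 (-0.059), Ier2 (-0.12), Jun (-0.27) and Malat1 (-0.0038), and for the interaction Fos (0.59), Gm12940 (0.44), Hspa1a (0.54), Nfkbiz (2.11) and Tnfaip3 (1.01). Leaving out Gm26917, Gm42418 and Lars2, also chosen after seeing the data, called 2087.

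Replicate numbers are shared by the groups, and the sources do not say whether they pair the libraries. Over 45 same-numbered pairs the deviations from group means correlated with a median r of 0.00455 (-0.105 to 0.278, 4 pairs over 0.1). With 3 libraries per group such correlations cannot settle whether libraries are paired. With the replicate number as a block 2234 genes were called, 1067 higher and 1167 lower, with 156 alike higher and 29 alike lower and 1654 for the interaction.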
